A study of Arabidopsis thaliana with 30 samples.

Results

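ACC synthase makes 1-aminocyclopropane-1-carboxylic acid (ACC), the direct precursor of the plant hormone ethylene, and transcripts of 8 genes of this family were followed through whole seedlings of Arabidopsis thaliana. The genes were taken by locus code: ACS2 (AT1G01480), ACS4 (AT2G22810), ACS5 (AT5G65800), ACS6 (AT4G11280), ACS7 (AT4G26200), ACS8 (AT4G37770), ACS9 (AT3G49700) and ACS11 (AT4G08040). They are 8 of 27655 genes counted, and all were found. ACS1, ACS10 and ACS12, which resemble the family but are not known as active ACC synthases, were kept apart as relatives.

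ACC synthase converts S-adenosylmethionine to ACC, which ACC oxidases turn into ethylene, and this first step usually limits how much ethylene a tissue makes. The enzymes are controlled both through their transcripts and through the stability of the protein, which depends on the carboxyl end. Type 1 enzymes (ACS2 and ACS6) carry serines there that the mitogen-activated kinases MPK3 and MPK6 phosphorylate, which stabilises the protein. Type 2 enzymes (ACS4, ACS5, ACS8 and ACS9) are bound through their tail by ETO1 and its relatives EOL1 and EOL2, which lead to their breakdown. ACS7 has a short tail without such sites, and ACS11 has been placed with either the second or the third type. Ethylene is perceived by membrane receptors, and EIN2 carries the signal from there towards the nucleus.

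Seedlings 12 days old of wild type (Col-0) and of ein2-5, a mutant of EIN2 that is insensitive to ethylene, had been grown on agar with Murashige and Skoog (MS) medium and sucrose. They were covered with liquid MS medium alone, or with the same medium plus antimycin A (AA) at 20 µM, which blocks complex III of the mitochondrial respiratory chain, and were sampled after 3 h or 24 h. Further seedlings of both genotypes were not covered (untreated). This gave 5 conditions in each genotype, 10 groups of 3 libraries and 30 libraries in all, sequenced as poly(A) RNA. The 5 ein2-5 groups all carry the same allele. The labels give the time of sampling (0 h, 3 h or 24 h) as the batch, so AA was set against MS at the same time, while between MS and untreated seedlings treatment, time and batch cannot be told apart. Nothing says that libraries of a group came from separate cultures, so a p-value sets a difference against the spread of these samples alone, which may be technical.

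The carboxyl ends that separate the types are shown as the last 75 coding bases of 5 members, read from the RefSeq copy of assembly TAIR10.1, each 5′ to 3′ on its own strand and ending with the stop codon. Capitals mark each serine codon that is followed directly by a proline codon, the setting in which mitogen-activated kinases phosphorylate. ACS6 is at chr4:6863979-6866116 (plus strand), ACS2 at chr1:175706-178406 (plus), ACS7 at chr4:13275200-13277188 (plus), ACS8 at chr4:17752079-17754157 (plus) and ACS11 at chr4:4886962-4889224 (plus).
ACS2: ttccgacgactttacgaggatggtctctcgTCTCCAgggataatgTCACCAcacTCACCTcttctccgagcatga
ACS6: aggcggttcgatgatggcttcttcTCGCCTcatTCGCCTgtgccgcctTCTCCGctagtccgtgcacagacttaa
ACS7: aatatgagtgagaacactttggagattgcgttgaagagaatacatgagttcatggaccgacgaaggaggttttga
ACS8: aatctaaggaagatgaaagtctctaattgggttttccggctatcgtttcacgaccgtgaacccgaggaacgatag
ACS11: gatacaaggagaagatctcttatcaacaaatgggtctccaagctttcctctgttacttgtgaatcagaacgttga
ACS2 and ACS6 each held 3 such pairs in this window, and the other 6 members held 0. ACS4 (chr2:9717602-9719594), ACS5 (chr5:26330746-26332812) and ACS9 (chr3:18434449-18436141) lie on minus strands. ACS7 had the shortest coding sequence, 1344 bases, and ACS2 the longest, 1491 bases. Across the aligned coding bases the closest members were ACS5 with ACS9 (84.3% identical) and ACS4 with ACS8 (79.5%), and the farthest were ACS2 with ACS4 (61.5%). None of the 8 overlaps another annotated gene in that annotation. Fractional counts, which mark read pairs shared with another place in the genome, occurred among the 8 in ACS6 alone, in 2 of 30 libraries.

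Promoters are shown for the 3 members whose transcripts were higher with AA at 3 h in both genotypes, as the 250 bases before the annotated start of the gene (TAIR10.1, RefSeq, plus strand for all 3). Capitals mark the core of the W-box, TTGAC on either strand, which WRKY transcription factors bind. WRKY33 is known to bind upstream of ACS2 and ACS6.
ACS2, chr1:175456-175705: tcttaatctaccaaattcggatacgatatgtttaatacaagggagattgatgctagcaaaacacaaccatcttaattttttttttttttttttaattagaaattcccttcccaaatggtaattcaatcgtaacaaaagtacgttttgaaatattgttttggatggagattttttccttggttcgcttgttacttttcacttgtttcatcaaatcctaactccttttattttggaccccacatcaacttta
ACS6, chr4:6863729-6863978: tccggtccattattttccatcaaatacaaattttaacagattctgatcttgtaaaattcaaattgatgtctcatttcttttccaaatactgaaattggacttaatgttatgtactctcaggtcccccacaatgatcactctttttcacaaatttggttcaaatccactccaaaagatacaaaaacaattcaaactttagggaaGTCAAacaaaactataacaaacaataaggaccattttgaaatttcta
ACS7, chr4:13274950-13275199: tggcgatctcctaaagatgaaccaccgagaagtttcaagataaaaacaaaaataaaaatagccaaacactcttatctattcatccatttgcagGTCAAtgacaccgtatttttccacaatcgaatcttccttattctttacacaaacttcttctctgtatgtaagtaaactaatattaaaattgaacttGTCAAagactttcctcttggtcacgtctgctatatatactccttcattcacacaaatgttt
The W-box core was in 6 of the 8 ACS promoters, with none in this window of ACS2 and ACS4, and in 44.9% of 27443 promoters of the same length. In ACS6 it lay 47 bases before the start, and in ACS7 at 157 and 61 bases. An auxin response element (TGTCTC, either strand) was in 4 of 8, those of ACS5, ACS6, ACS8 and ACS11, and in 10.9% of all promoters. A core of the motif bound by the mitochondrial stress factor ANAC017 (CTTG, then 5 bases of any kind, then CA) was in 0 of 8 and in 7.97% of all, the G-box (CACGTG) in 0 and 6.49%, and the GCC-box of ethylene response factors (GCCGCC) in 0 and 1.87%. No match of these motifs overlapped another. Such matches describe the letters of a window and no more.

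The libraries held 21.2 to 32.6 M counted read pairs, with a median of 24.3 M. EIN2 transcript averaged 105 to 118 CPM (counts scaled to the size of the library) in the wild-type groups and 39.0 to 45.7 CPM in the ein2-5 groups. Replicate 3 of ein2-5 with MS at 3 h stood apart: its counts differed from those of replicates 1 and 2 by chi-squares of 35.9 and 35.2 per degree of freedom, while no other pair within a group exceeded 21.2. Values without it are given beside results that use it wherever they change a call or move the value markedly. Of 6 root markers all had counts in every group, as had all 5 of green shoots, while 3 flower and seed genes together came to at most 1.21 CPM in a library.

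ACS6 supplied the most ACC synthase transcript per length of gene in all 10 groups by group mean, from 45.8% to 72.3% of the summed level of the family. The lowest share, 45.8 ± 11.6% (SD), was in ein2-5 with MS at 3 h and was lowered by the library that stood apart. The next lowest was 47.3%, in ein2-5 with AA at 24 h. The summed level, in CPM per kilobase of annotated exon, was 20.3 ± 0.623 (SD, n = 3) in untreated wild type and 16.8 ± 3.34 in untreated ein2-5. It was highest in ein2-5 with AA at 3 h, with 69.1, 69.5 and 96.3 in the 3 libraries against 22.3, 26.0 and 41.0 with MS, where 41.0 is the library that stood apart. Wild type with AA at 3 h gave 32.7, 34.7 and 32 against 18.7, 18.0 and 15.3 with MS. In both genotypes the AA libraries at 3 h all lay above their MS libraries, and those of ein2-5 all lay above those of wild type. At 24 h the sums were 17.4 ± 2.20 with MS and 19.9 ± 2.19 with AA in wild type, and 31.0 ± 2.39 and 29.3 ± 0.767 in ein2-5, so that AA and MS overlapped within each genotype.

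**Figure D1:**
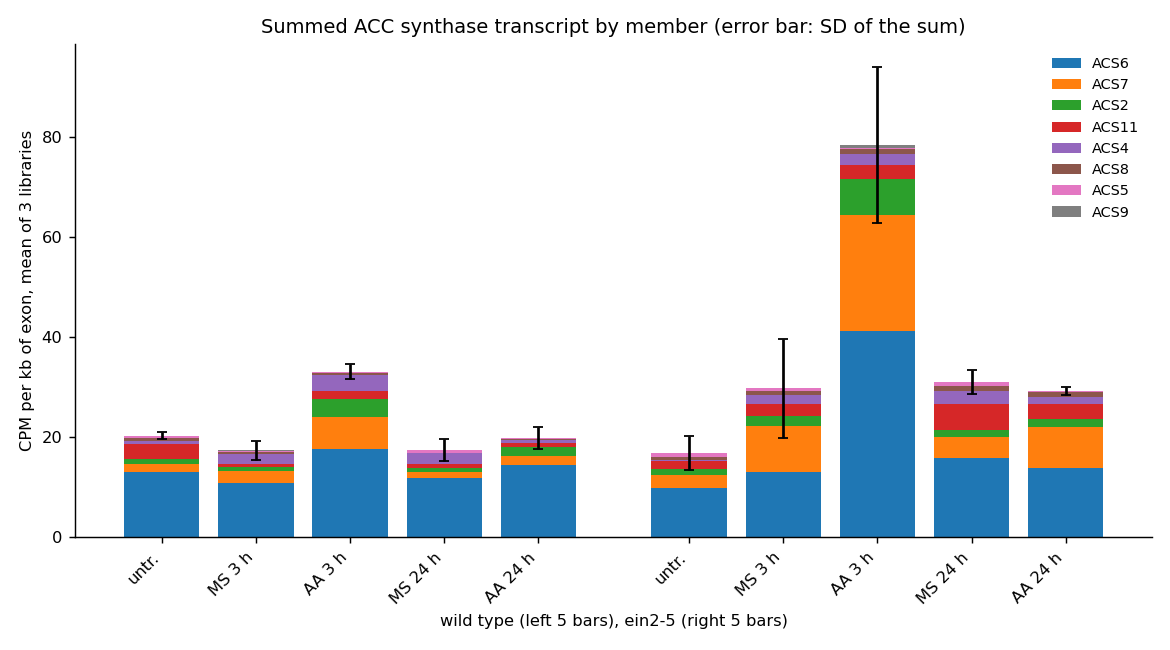
Stacked bars of ACC synthase transcript by member in the 10 groups (vertical axis, CPM per kb of exon, mean of 3 libraries; error bar, SD of the summed level). The bar of ein2-5 with AA at 3 h, 78.3, is the tallest, and ACS6 is the largest piece of each bar.

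The order below ACS6 changed with genotype and condition. In CPM per kilobase, untreated wild type had ACS6 at 13, ACS11 at 3.01, ACS7 at 1.64, ACS2 at 0.899, ACS4 at 0.637, ACS8 at 0.558, ACS5 at 0.532 and ACS9 at 0.0371, and the libraries of neighbours overlapped from ACS2 down to ACS5. With AA at 3 h in ein2-5 the order was ACS6 at 41.3, ACS7 at 23.1, ACS2 at 7.20, ACS11 at 2.81, ACS4 at 2.22, ACS8 at 1.01, ACS9 at 0.519 and ACS5 at 0.131, with no overlap between neighbours. With MS at 24 h in ein2-5, ACS11 came after ACS6 at 5.17, ahead of ACS7 at 4.07, but those 2 members overlapped. ACS6 and its next member overlapped in 1 group, ein2-5 with MS at 3 h, where ACS7 followed at 9.34. That overlap rested on the library that stood apart, which also raised the ACS7 mean and in which ACS7 was above ACS6. In the other libraries of the group ACS7 was below every ACS6 value. ACS9 was the lowest member in 9 of 10 groups.

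**Figure D2:**
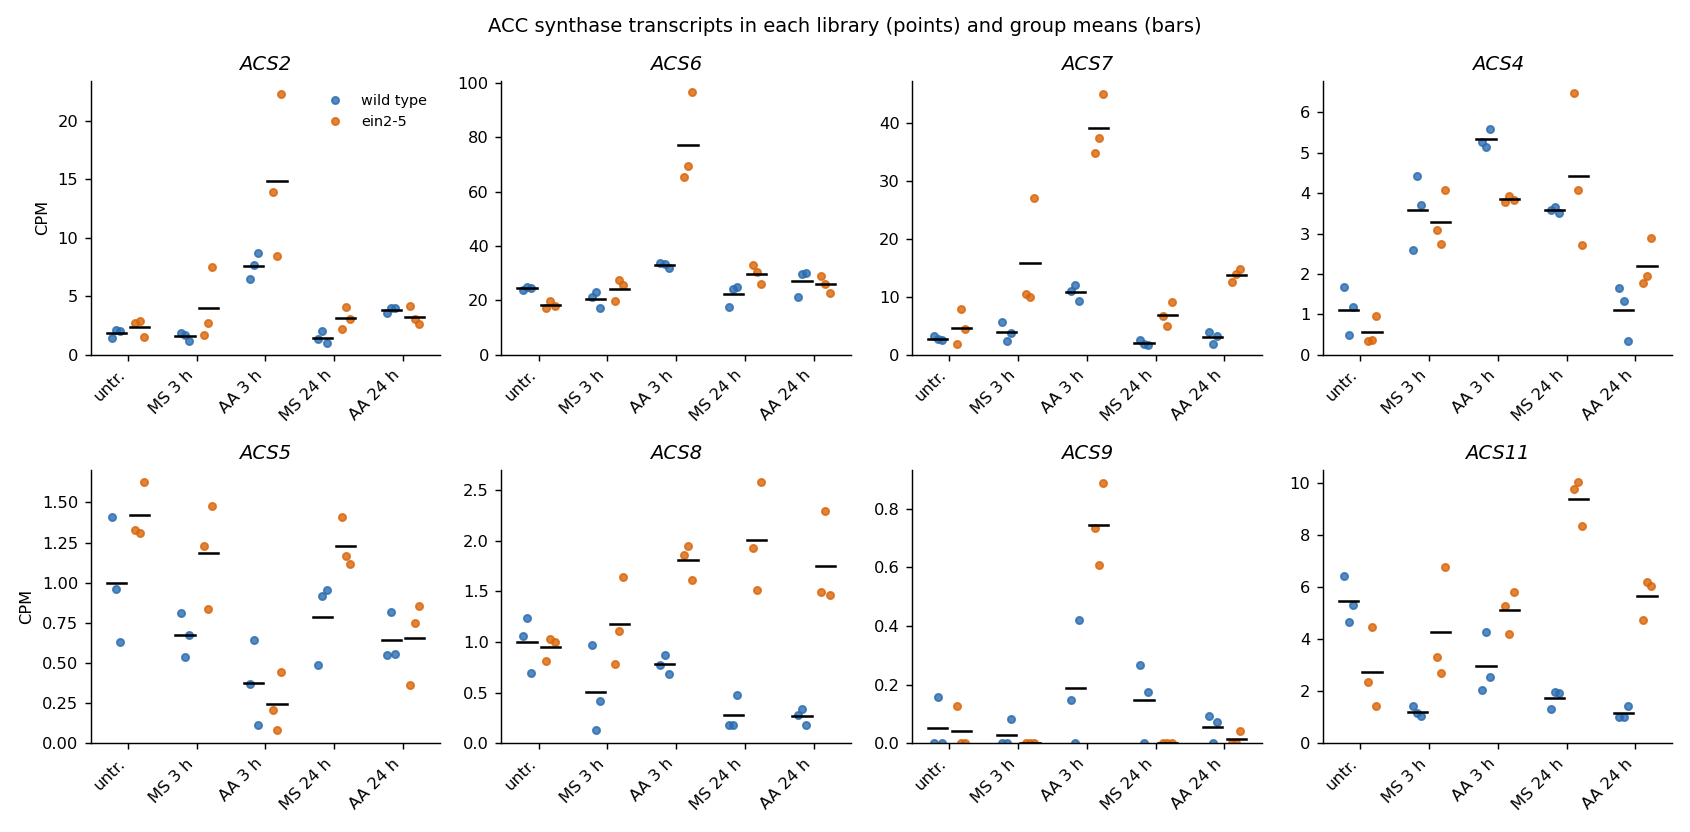
CPM of each ACC synthase gene in every library (points; blue, wild type; orange, ein2-5) and group means (black bars), by condition, with a scale of its own for each gene (untr., untreated). The orange points of ACS2, ACS6 and ACS7 peak with AA at 3 h, and those of ACS8 and ACS11 lie above blue in all MS and AA groups at 24 h.

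Depth limited the low members. Counts per library ran from 396 to 2394 for ACS6 and from 37 to 1117 for ACS7, but from 2 to 39 for ACS5, 3 to 60 for ACS8 and 0 to 22 for ACS9. All 8 passed the filter on low counts, ACS9 through the ein2-5 libraries with AA at 3 h, since no other group had all 3 libraries over it. ACS9 therefore had to differ in that group, and counts over the family are not evidence about it.

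The first question was how AA changed the family against MS alone at 3 h. In wild type the type 1 genes ACS2 and ACS6, the short-tailed ACS7 and ACS11 rose, and no member fell. In ein2-5 ACS2, ACS6 and ACS7 rose as well, and ACS5 fell. So 4 of 8 members passed in wild type, where 10% of all 21256 genes tested passed (edgeR's quasi-likelihood test, Benjamini-Hochberg adjusted p under 0.05). In ein2-5 4 of the 7 members other than ACS9 passed, where 12.8% of all genes did. ACS9 had passed the filter through that AA group and is left out of the count. Without ACS9 the median log2 fold change of the other 7 members was 0.69 in wild type and 0.62 in ein2-5, beside -0.01 for all genes in both. Without the library that stood apart the ein2-5 median of these members was 0.94, the value of ACS8.

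ACS2, a stress-responsive type 1 gene, stood at 1.87, 1.65 and 1.14 CPM in the wild-type MS libraries and at 6.46, 7.65 and 8.68 CPM with AA. In ein2-5 it stood at 1.68, 2.70 and 7.48 CPM with MS and at 13.9, 8.44 and 22.3 CPM with AA. In each genotype every AA library was above every MS library, although in ein2-5 the highest MS library, the one that stood apart, came within 1 CPM of the lowest AA library. The log2 fold change was 2.29 ± 0.39 (SE), or 4.88-fold, in wild type (edgeR's quasi-likelihood test, adjusted p = 8.48e-05) and 1.91 ± 0.35 in ein2-5 (adjusted p = 0.000193). Without the library that stood apart the ein2-5 value was 2.77 (adjusted p = 4.56e-07).

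ACS6, the other type 1 gene, was at 21.1, 23.1 and 17.1 CPM with MS and at 33.9, 33.3 and 31.7 CPM with AA in wild type. In ein2-5 it went from 19.9, 27.4 and 25.6 CPM with MS to 65.5, 69.5 and 96.7 CPM with AA. The groups did not overlap, and the AA libraries of ein2-5 were all above those of wild type. Its log2 fold change was 0.69 ± 0.15 in wild type (edgeR, adjusted p = 0.00181) and 1.67 ± 0.15 in ein2-5 (adjusted p = 7.66e-10; 1.72 without the library that stood apart, adjusted p = 7.16e-09).

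The test of that difference between genotypes, the interaction of AA and genotype, gave ACS6 a log2 difference of 0.98 ± 0.21 with an edgeR adjusted p of 0.0647, which missed the threshold. DESeq2 gave 0.00521, and over the other alternatives the adjusted p ran from 0.0475 without a count filter to 0.310 with 1 library left out. Without the library that stood apart the value was 1.01 (adjusted p = 0.0952). Of the 8 members 0 passed this interaction in edgeR, where 0.0706% of all genes did. ACS6 and ACS11 (-1.02 ± 0.46, adjusted p = 0.627) had an unadjusted p under 0.05, and DESeq2 called 1 member, ACS6. The ACS11 value was -0.52 ± 0.43 without the library that stood apart.

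ACS7, the short-tailed member, had 5.64, 2.27 and 3.72 CPM with MS and 11.0, 12.0 and 9.22 CPM with AA in wild type. Its ein2-5 libraries had 10.5, 9.98 and 27.0 CPM with MS and 34.9, 37.4 and 45.1 CPM with AA. AA libraries were above MS libraries in both genotypes without overlap. The log2 fold changes were 1.46 ± 0.36 in wild type (edgeR, adjusted p = 0.00628) and 1.31 ± 0.32 in ein2-5 (adjusted p = 0.00472). The wild-type call was lost without replicate 2 of MS (log2 1.20, adjusted p = 0.0656), and the ein2-5 value was 1.95 without the library that stood apart (adjusted p = 3.64e-05).

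ACS11 had 1.42, 1.16 and 1.06 CPM with MS and 2.07, 4.28 and 2.56 CPM with AA in wild type. All AA libraries lay above the MS libraries, and replicate 2 with AA was the highest. The log2 fold change was 1.29 ± 0.35 (edgeR, adjusted p = 0.0143), but the call was lost without replicate 2 of AA (log2 0.94, adjusted p = 0.142) and without replicate 2 or 3 of MS (adjusted p = 0.0580 and 0.0714). In ein2-5 ACS11 had 3.32, 2.70 and 6.79 CPM with MS and 5.29, 4.22 and 5.82 CPM with AA, which overlapped (log2 0.26 ± 0.30, adjusted p = 0.660). The highest of these MS libraries is the one that stood apart, and without it the value was 0.77 ± 0.30 (adjusted p = 0.119).

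Among the type 2 genes, ACS5 had 30, 22 and 36 counts in the ein2-5 MS libraries and 6, 2 and 11 with AA. These did not overlap, and ACS5 fell by 2.25 on the log2 scale (SE 0.50, edgeR adjusted p = 0.00175; -2.05 without the library that stood apart, adjusted p = 0.0115). In wild type it had 20, 12 and 16 counts with MS and 10, 17 and 3 with AA, which overlapped (log2 -0.84 ± 0.49, adjusted p = 0.372), and the difference between genotypes did not pass (-1.41 ± 0.71, adjusted p = 0.660). ACS9, the closest member to ACS5 in coding sequence, had 0 counts in all 3 ein2-5 MS libraries and 21, 15 and 22 with AA. That is at least 6.19-fold higher, taking 3 counts per library as the limit that a count of 0 allows. No p is given, since ACS9 was tested at all because of this AA group. ACS4 and ACS8 did not pass in either genotype at 3 h, and their log2 changes lay between 0.23 and 0.62, with ACS8 in ein2-5 at 0.94 (adjusted p = 0.222) without the library that stood apart.

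In bulk seedlings fewer cells of a type and less RNA per cell cannot be told apart. Summed root markers were 92.7 to 104 CPM with MS and 75.9 to 84.2 CPM with AA in wild type at 3 h, and 83.3 to 95.9 and 68.8 to 78.8 CPM in ein2-5, with 2 of 6 root markers lower in each genotype. Of 5 green shoot markers 0 passed by edgeR in either genotype at 3 h, and 1 in each had an unadjusted p under 0.05. The part of these markers in the ACS results was not tested.

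**Figure D3:**
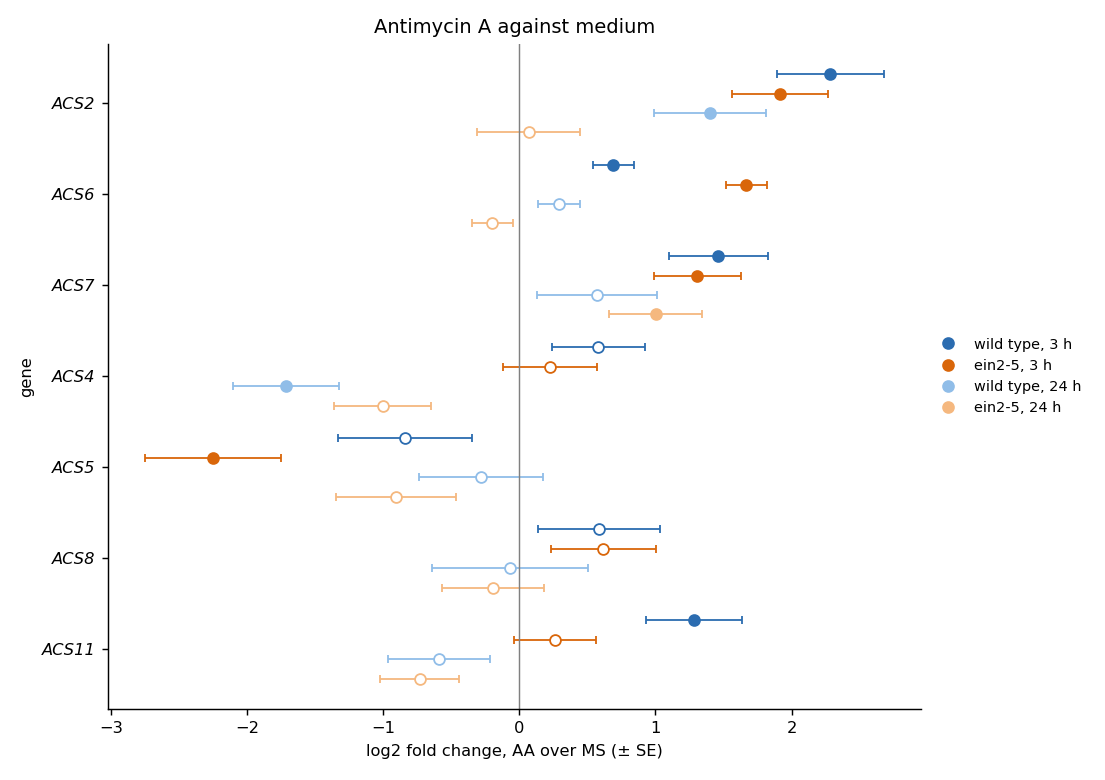
Log2 fold change of AA over MS for 7 ACC synthase genes (points ± SE), by genotype and time; filled points passed the adjusted p threshold, open points did not, and ACS9 is left out because of its counts of 0. ACS2, ACS6 and ACS7 have filled points to the right of 0 at 3 h in both genotypes.

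At 24 h AA and MS differed in fewer members. In wild type ACS2 was still higher with AA and ACS4 was lower, so 2 of 8 passed where 13% of all genes did. In ein2-5 ACS7 alone passed among the 8, where 13.9% of all genes did. The medians over the 7 members other than ACS9 were -0.07 in wild type and -0.20 in ein2-5 on the log2 scale, beside 0.00 for all genes in both.

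ACS2 in wild type had 1.37, 2.01 and 0.998 CPM with MS and 3.58, 3.99 and 3.98 CPM with AA at 24 h, without overlap. Its log2 fold change was 1.4 ± 0.41 (edgeR, adjusted p = 0.0205), and the adjusted p rose to between 0.0503 and 0.111 without replicate 2 or 3 of AA or replicate 1 or 3 of MS. ACS4, a type 2 gene, had 3.59, 3.66 and 3.51 CPM with MS and 1.65, 1.33 and 0.332 CPM with AA. Every AA library was below the MS libraries, and ACS4 fell by 1.72 on the log2 scale (SE 0.39, adjusted p = 0.00265). In ein2-5 ACS4 had 6.47, 4.07 and 2.71 CPM with MS and 1.78, 1.96 and 2.88 CPM with AA, which overlapped (log2 -1.0 ± 0.36, edgeR adjusted p = 0.0586; DESeq2 0.0418, and 0.0224 to 0.348 with 1 library left out). The difference between genotypes in the AA effect on ACS4 at 24 h was 0.72 ± 0.53 (adjusted p = 0.711).

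ACS7 in ein2-5 had 6.71, 4.94 and 9.02 CPM with MS at 24 h and 12.6, 14.0 and 14.7 CPM with AA. The groups did not overlap, and the log2 fold change was 1.0 ± 0.34 (edgeR, adjusted p = 0.0479). That call held in 7 of 15 alternatives: DESeq2 gave 0.0986, and leaving out any of 5 libraries gave 0.0814 to 0.191. Root markers were lower with AA at 24 h, 109 to 114 CPM in sum against 71.2 to 82.5 CPM in wild type (5 of 6 markers passed) and 85.2 to 101 against 65.6 to 72.5 CPM in ein2-5 (4 of 6 passed). Green shoot markers were lower too, 3 of 5 in wild type and 4 of 5 in ein2-5. Their part in the ACS results was not tested.

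The change of the AA effect from 3 h to 24 h was tested as an interaction with time, within each genotype. In wild type it passed for ACS4 (log2 -2.30 ± 0.52, edgeR adjusted p = 0.00418) and ACS11 (-1.88 ± 0.51, adjusted p = 0.0218), 2 of 8 members against 6.5% of all genes. The ACS11 call was lost without any of 6 libraries (adjusted p 0.0525 to 0.0903). In ein2-5 it passed for ACS6 (-1.87 ± 0.21, adjusted p = 3.11e-07) and ACS2 (-1.85 ± 0.52, adjusted p = 0.0180), 2 of 8 against 10.5% of all genes. ACS6 in ein2-5 had returned at 24 h to 29.1, 25.9 and 22.8 CPM with AA, overlapping the 33.0, 30.2 and 26.0 CPM with MS. Without the library that stood apart these values were -1.92 for ACS6 (adjusted p = 4.94e-07) and -2.70 for ACS2 (adjusted p = 0.000106), and ACS11 passed as well (-1.51, adjusted p = 0.0122). ACS2 missed the threshold without replicate 3 of AA at 3 h (adjusted p = 0.0814) and without replicate 2 of MS at 24 h (0.0740).

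The next question was how the family differed between ein2-5 and wild type under each condition. No member passed in untreated seedlings. With MS or AA, ACS7 was higher in ein2-5 in all 4 conditions, ACS11 in 3 of them and ACS8 in both conditions at 24 h, and no member was called lower. ACS6 was higher in ein2-5 with AA at 3 h.

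In untreated seedlings 0 of 8 members passed by edgeR, where 4.33% of all genes did, with 3 at an unadjusted p under 0.05 (ACS4, ACS6 and ACS11, all lower in ein2-5). DESeq2 called 1 member, ACS11 (adjusted p = 0.0426). ACS11 had 6.42, 4.67 and 5.31 CPM in untreated wild type and 2.35, 4.47 and 1.42 CPM in ein2-5. The groups did not overlap, and the log2 difference was -0.99 ± 0.31 (edgeR, adjusted p = 0.0679), or -1.54 with an adjusted p of 0.00623 without replicate 2 of ein2-5. Over all libraries left out the adjusted p ran up to 0.304.

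ACS7 was the member called most widely. Its log2 difference, ein2-5 over wild type, was 2.02 ± 0.36 with MS at 3 h (edgeR, adjusted p = 0.000347), 1.79 ± 0.41 with MS at 24 h (0.00333), 1.86 ± 0.33 with AA at 3 h (0.000263) and 2.22 ± 0.37 with AA at 24 h (0.000101). The ein2-5 libraries were above the wild-type libraries in each of these 4 conditions. At 24 h wild type had 2.57, 1.78 and 1.60 CPM with MS and 3.86, 1.91 and 3.21 CPM with AA, all under the ein2-5 values given above. Without the library that stood apart the difference with MS at 3 h was 1.38 (adjusted p = 0.00840). In untreated seedlings ACS7 had 3.16, 2.71 and 2.46 CPM in wild type and 1.75, 7.83 and 4.42 CPM in ein2-5, which overlapped (log2 0.76 ± 0.40, adjusted p = 0.365). The ACS7 difference with MS did not pass the test against the difference in untreated seedlings, at 3 h (1.26 ± 0.54, adjusted p = 0.272; 0.63 and 0.720 without the library that stood apart) or at 24 h (1.03, adjusted p = 0.395).

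ACS8, a type 2 gene, had 4, 4 and 11 counts in wild type with MS at 24 h and 48, 40 and 60 in ein2-5. With AA at 24 h it had 6, 10 and 5 counts in wild type and 37, 55 and 36 in ein2-5. The genotypes did not overlap at 24 h, and the log2 differences were 2.81 ± 0.46 with MS (edgeR, adjusted p = 7.11e-05) and 2.68 ± 0.46 with AA (0.000138), which are 7.01-fold and 6.42-fold. At 3 h they were 1.18 ± 0.44 with MS (0.0818) and 1.21 ± 0.40 with AA (0.0587). The MS value at 3 h ran from 0.74 to 2.05 with 1 library left out: it was 0.86 without the library that stood apart (adjusted p = 0.380) and passed without replicate 1 of wild type (2.05, adjusted p = 0.00714). The AA value passed in DESeq2 (0.0407), with 1 CPM in 3 libraries as the filter (0.050) and in a fit of only the libraries compared (0.0275).

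ACS11 had 1.33, 1.97 and 1.95 CPM in wild type with MS at 24 h and 9.77, 10.1 and 8.37 CPM in ein2-5. With AA at 24 h it had 1.01, 1.02 and 1.44 CPM in wild type and 4.73, 6.21 and 6.05 CPM in ein2-5. All ein2-5 libraries were above those of wild type. The log2 differences were 2.42 ± 0.32 with MS (edgeR, adjusted p = 3.08e-06) and 2.28 ± 0.34 with AA (1.91e-05). With MS at 3 h the difference was 1.81 ± 0.35 (0.000681), or 1.3 without the library that stood apart (0.0162), and with AA at 3 h it was 0.78 ± 0.31 (0.128; 0.0429 to 0.395 with 1 library left out).

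Type 1 genes were called at 3 h in the edgeR fit of all libraries. ACS6 was 1.23 ± 0.15 higher in ein2-5 with AA at 3 h on the log2 scale (edgeR, adjusted p = 1.05e-06), or 2.34-fold. ACS2 passed with MS at 3 h (log2 1.34, adjusted p = 0.0303), but this rested on the library that stood apart: without it the value was 0.50 with an adjusted p of 0.570, and the call was also lost without replicate 2 or 3 of wild type (0.0825 and 0.144). With MS at 24 h ACS2 passed in DESeq2 (adjusted p = 0.0490) and in a fit of only the libraries compared (0.0463), and ACS6 passed without replicate 3 of ein2-5 (0.51, adjusted p = 0.0473). So the members that passed were 3 of 8 with MS at 3 h (10.4% of all genes passed), or 2 without the library that stood apart, 3 with MS at 24 h (11.4%), 2 with AA at 3 h (7.82%) and 3 with AA at 24 h (9.91%). ACS4, ACS5 and ACS9 passed in none of the 5 comparisons of genotype. At an unadjusted p under 0.05 stood ACS4 in untreated seedlings and with AA at 24 h, and ACS5 nowhere. ACS9 stood there with MS at 24 h, on few counts, and with AA at 3 h, where the ein2-5 group is the one through which it passed the filter.

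Green shoot markers were lower in ein2-5 with MS at 3 h, 4 of 5 passing (1 of 5 without the library that stood apart), and the library that stood apart had the lowest sum there (36528 CPM against 46732 and 45204). In the other 4 conditions 0 or 1 of 5 green shoot markers and 0 or 1 of 6 root markers passed, all lower in ein2-5. Their part in the ACS differences was not tested.

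**Figure D4:**
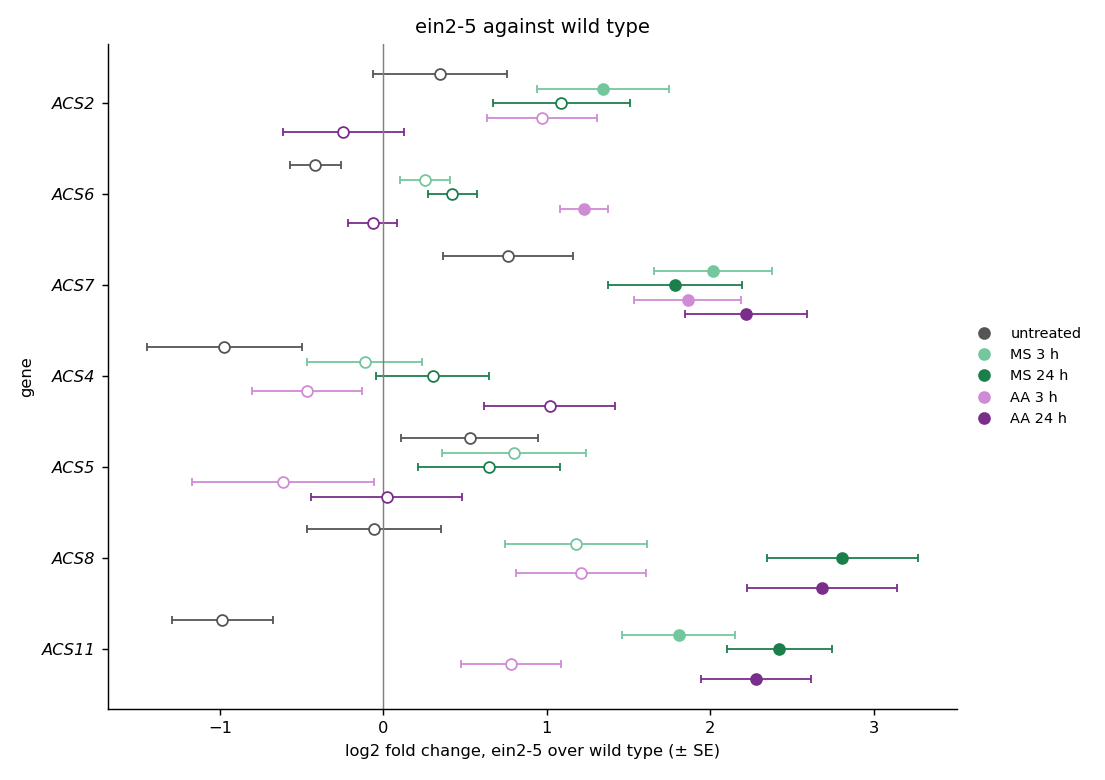
Log2 fold change of ein2-5 over wild type for 7 ACC synthase genes (points ± SE) in the 5 conditions; filled points passed the adjusted p threshold, open points did not, and ACS9 is left out because of its counts of 0. ACS7 has 4 filled points near 2, while ACS8 and ACS11 have theirs between 1.81 and 2.81.

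MS against untreated seedlings gave the family's response to being covered with liquid, together with time and batch. ACS4 was higher with MS in all 4 comparisons. ACS11 fell in wild type at both times and rose in ein2-5 at 24 h, and ACS8 fell in wild type at 24 h. Members that passed were 2 of 8 in wild type at 3 h (33.2% of all genes passed) and 3 of 8 at 24 h (19.9%). In ein2-5 they were 3 of 8 at 3 h (31.7%), or 2 without the library that stood apart, and 3 of 8 at 24 h (15%). At 3 h the share of members was close to that of all genes in both genotypes. Of the 5 green shoot markers 2 to 4 were higher with MS in each comparison, and 1 was lower, in ein2-5 at 3 h (there 4 higher and 0 lower without the library that stood apart), while of 6 root markers 0 or 1 was lower. Their part in the ACS changes was not tested.

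ACS4 had 1.67, 0.479 and 1.17 CPM in untreated wild type, 2.60, 4.41 and 3.72 CPM with MS at 3 h and 3.59, 3.66 and 3.51 CPM at 24 h. In ein2-5 it had 0.342, 0.369 and 0.959 CPM untreated, 3.08, 2.74 and 4.07 CPM at 3 h and 6.47, 4.07 and 2.71 CPM at 24 h. No MS library overlapped the untreated libraries of its genotype. The log2 fold changes were 1.69 ± 0.39 at 3 h (edgeR, adjusted p = 0.000854) and 1.70 ± 0.39 at 24 h (0.00170) in wild type, and 2.55 ± 0.43 (2.18e-05) and 2.98 ± 0.43 (6.42e-06) in ein2-5. Without the library that stood apart the value of ein2-5 at 3 h was 2.38 (0.000158).

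ACS11 went from a mean of 5.46 ± 0.884 CPM (SD, n = 3) in untreated wild type to 1.21 ± 0.188 CPM with MS at 3 h and 1.75 ± 0.364 CPM at 24 h. It fell by 2.16 (SE 0.34, edgeR adjusted p = 6.66e-06) and by 1.64 (SE 0.33, adjusted p = 0.000406) on the log2 scale. In ein2-5 it went from 2.75 ± 1.56 CPM to 4.27 ± 2.20 CPM at 3 h (log2 0.63 ± 0.31, adjusted p = 0.131) and to 9.40 ± 0.904 CPM at 24 h (1.77 ± 0.31, adjusted p = 9.17e-05). The ein2-5 value at 3 h depended on single libraries: it was 0.14 without the library that stood apart (adjusted p = 0.813), 0.88 without replicate 2 of MS (0.0394) and 1.19 without replicate 2 of the untreated group (0.00666).

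ACS8 had 24, 31 and 22 counts in untreated wild type and 4, 4 and 11 with MS at 24 h, and fell by 1.79 on the log2 scale (SE 0.49, edgeR adjusted p = 0.00785; 0.0521 without replicate 1 of MS). ACS7 in ein2-5 rose at 3 h by 1.75 ± 0.35 (adjusted p = 0.000229), or by 1.13 without the library that stood apart (0.00883). ACS6 in ein2-5 rose from 17, 19.9 and 17.8 CPM to 33.0, 30.2 and 26.0 CPM with MS at 24 h (0.71 ± 0.15, adjusted p = 0.00144). Its change at 3 h, 0.41 ± 0.15 (adjusted p = 0.0400), held in 7 of 15 alternatives and was 0.38 without the library that stood apart (0.101).

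Whether the response to MS differed between genotypes was tested as an interaction. At 3 h ACS11 passed, 1 of 8 members against 1.47% of all genes, with a log2 difference of 2.79 ± 0.46 (edgeR, adjusted p = 0.00114; 2.29 and 0.00403 without the library that stood apart). At 24 h 3 of 8 passed, against 4.01% of all genes: ACS11 with 3.41 ± 0.45 (6.79e-06), ACS8 with 2.87 ± 0.63 (0.00457) and ACS6 with 0.84 ± 0.22 (0.0204). The ACS6 call was lost without replicate 1 of MS in ein2-5, of the untreated ein2-5 group or of MS in wild type (0.0614, 0.0534 and 0.0882). For AA the interaction with genotype at 24 h was called for 0 of 8 members by edgeR, where 0.296% of all genes passed; 2 members, ACS2 and ACS6, had an unadjusted p under 0.05, and DESeq2 called 0. All these comparisons share groups with those above.

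The genes around ACC synthase were followed in the same tests. A list of 6 activating genes held MPK3, MPK6, MKK4, MKK5 and MKK9, kinases on the way to type 1 enzymes, and WRKY33, which binds upstream of ACS2 and ACS6. Of these 6 genes 3 rose with AA at 3 h in wild type and 0 fell, beside 10% of all genes called in either direction there. WRKY33 went from 55.6, 45.2 and 44.3 CPM to 110, 116 and 141 CPM (log2 1.34 ± 0.15, edgeR adjusted p = 1.16e-07), MKK9 rose by 0.79 ± 0.16 (0.000786) and MPK3 by 0.43 ± 0.12 (0.0169). In ein2-5, where 12.8% of all genes passed, 2 of 6 rose, WRKY33 by 1.4 ± 0.15 (4.10e-08; 1.62 without the library that stood apart) and MKK9 by 1.44 ± 0.16 (5.05e-08; 1.50 without it). The difference between genotypes did not pass for MKK9 (log2 0.66, adjusted p = 0.445) or WRKY33 (0.06, adjusted p = 0.965).

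Of 5 genes for turnover of the enzymes (ETO1, EOL1, EOL2, XBAT32 and the phosphatase subunit RCN1), 1 passed with AA at 3 h in each genotype, beside the same shares of all genes, 10% and 12.8%. XBAT32, a ubiquitin ligase that acts on ACS4 and ACS7, fell by 0.58 in wild type (SE 0.13, edgeR adjusted p = 0.00220) and by 0.58 in ein2-5 (SE 0.13, adjusted p = 0.00159). Of 4 ACC oxidases, the enzymes that use ACC, 0 rose at 3 h, 1 fell in wild type and 2 fell in ein2-5. ACO1 went from 39.9, 52.3 and 54.3 CPM to 23.4, 22.2 and 23.1 CPM in wild type, a fall of 1.09 on the log2 scale (SE 0.11, adjusted p = 8.50e-09), and fell by 0.94 in ein2-5 (SE 0.11, adjusted p = 1.20e-07). ACO5 fell by 0.53 in ein2-5 (adjusted p = 0.00398). Without the library that stood apart the ein2-5 values were -0.60 for XBAT32, -0.89 for ACO1 and -0.54 for ACO5, all still called, and ACO4 passed as well (0.25, adjusted p = 0.0355). Of 13 genes that make S-adenosylmethionine or recycle its sulphur-containing remnant (the Yang cycle), 1 passed in each genotype: MAT3 fell by 0.23 in wild type (adjusted p = 0.0204) and by 0.28 in ein2-5 (0.00345), but in ein2-5 it missed the threshold without the library that stood apart (-0.17, adjusted p = 0.0816), while ARD3 passed (-1.06, adjusted p = 0.0307). A share of 1 in 13 is below that of all genes called in either genotype.

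At 24 h ACO1 had the opposite direction in wild type, where AA gave 54.8, 49.8 and 43.9 CPM against 33.3, 28.7 and 28.2 CPM with MS (log2 0.72 ± 0.11, edgeR adjusted p = 1.71e-05). The interaction of AA with time for ACO1 was 1.81 ± 0.15 in wild type (adjusted p = 1.11e-09) and 1.12 ± 0.15 in ein2-5 (6.81e-06). WRKY33 fell by 0.48 with AA at 24 h in ein2-5 (adjusted p = 0.0332), and its interaction with time there was -1.88 ± 0.22 (3.65e-07). Of the 6 activating genes 1 was higher and 0 lower with AA at 24 h in wild type, and 0 higher and 1 lower in ein2-5. Of the 4 oxidases 1 was higher and 1 lower in wild type, and 1 was lower in ein2-5. Of the 13 Yang cycle genes 2 were higher in wild type and 1 was lower in ein2-5. Of all genes 13% passed in wild type and 13.9% in ein2-5.

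Between genotypes, the ACC oxidase gene ACO5 differed in the direction opposite to the called ACS genes. It was lower in ein2-5 in all 5 conditions, and in untreated seedlings it stood at 39.6, 39.3 and 42.2 CPM in wild type and 19.1, 19.7 and 16.3 CPM in ein2-5 (log2 -1.14 ± 0.12, edgeR adjusted p = 2.44e-07). With MS at 3 h 2 of 4 oxidases passed (10.4% of all genes did), both lower, with or without the library that stood apart. With MS at 24 h 2 of 4 passed in edgeR (11.4% of all genes did), ACO1 higher (0.37 ± 0.11, adjusted p = 0.0231) and ACO5 lower. With MS at 24 h ein2-5 also had more WRKY33 (log2 1.03 ± 0.16, adjusted p = 2.45e-05), MPK3 (0.75 ± 0.12, 4.90e-05) and ARD3, a Yang cycle dioxygenase, which stood at 37.9, 49.5 and 35.4 CPM in ein2-5 and 4.65, 5.63 and 6.42 CPM in wild type (2.88 ± 0.30, 3.78e-08). Of the 5 turnover genes 0 passed in any comparison of genotype by edgeR, with at most 1 at an unadjusted p under 0.05.

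With MS against untreated seedlings 3 to 5 of the 6 activating genes rose in each of the 4 comparisons, and 0 fell, beside 15% to 33.2% of all genes called in either direction. WRKY33 rose by 1.23 ± 0.16 in wild type at 3 h (edgeR, adjusted p = 2.77e-07) and by 1.74 ± 0.16 in ein2-5 (4.76e-10; 1.53 without the library that stood apart). Of the 4 oxidases 1 or 2 rose in each comparison and ACO4 every time, in the edgeR fit of all libraries. One that fell was ACO5 in ein2-5 at 24 h (-0.39 ± 0.13, adjusted p = 0.0370), and no other oxidase did. In ein2-5 at 3 h the oxidases that rose went from 2 to 1 without the library that stood apart, and the activating genes from 4 to 3. Among the relatives ACS10 fell with MS at 3 h, from 94.3, 92.3 and 90.6 CPM to 58.4, 54.2 and 54.8 CPM in wild type (-0.73 ± 0.08, adjusted p = 3.75e-09) and by 0.66 in ein2-5 (4.06e-08). ACS10 overlaps another annotated gene and the counting did not use strand, so its reads cannot be told apart from those of that neighbour. ACS1 had a group mean of at most 0.161 CPM and was not tested.

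Members differed in which other members they followed over the 30 libraries, in log2 CPM. ACS2 and ACS6 had a Pearson r of 0.82, ACS8 and ACS11 also of 0.82, and ACS2 and ACS7 of 0.74. ACS5 was negatively related to ACS9 (-0.70) and ACS6 (-0.59), and ACS4 had no r above 0.39 with any member. ACS9 had a median count of 0 and passed the filter through ein2-5 with AA at 3 h. Its r values therefore mainly set that group against the rest and are not evidence of likeness. The libraries are 10 groups of 3, so these values describe shared group levels, and no p is given.

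Each member was also set against the 19161 genes with a mean of at least 1 CPM, itself left out. The closest to ACS2 was BCS1 (AT3G50930), with r = 0.92, followed by TPPG and BZIP60, a transcription factor of the unfolded protein response. ACS6 was closest to SZF1, a zinc finger gene of the salt response (0.89), and ACS7 to AT1G51850 (0.93) and MLO12 (0.91). ACS11 was closest to the calcium pump gene ACA1 (0.90), and ACS8 to XTR6 (0.84), and the calcium-dependent kinase gene CPK28 was second for both, at 0.89 and 0.84. ACS4 was closest to the resistance gene SNC1 (0.86), ACS5 to AT4G01140 (0.80) and ACS9 to RHA1B (0.75). The limit given above for the r values of ACS9 holds here too.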

How the data were processed

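Poly(A) RNA of whole seedlings was sequenced in 30 libraries, 3 in each of 10 groups. The authors deposited estimated counts, made with featureCounts 2.0.3 as read pairs without regard to strand, with pairs that map to several places shared in part among them, per the file headers; 6.31% of values were not whole and were rounded. The annotation was release 57 on TAIR10, per the file headers, and the submitters' processing notes also name HISAT2, SAMtools, DESeq and DESeq2.

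Genes were kept by filterByExpr (minimum count 10), which left 21256 of 27655, and scaled by TMM factors (0.958 to 1.06). All 30 libraries entered 1 negative binomial fit in edgeR 4.0.16 (R 4.3.3) that estimates each group's mean, and 19 comparisons were tested with the quasi-likelihood F test, Benjamini-Hochberg adjusted over all genes tested (threshold 0.05; common biological coefficient of variation 11.2%). CPM used TMM factors, and CPM per kilobase used exon lengths of TAIR10.1, which may differ from the release counted. A count of 0 was set to a floor of 3 counts per library for a bound; floors cover counting error only.

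The 8 members were fixed by locus code. The members and the pathway and marker lists were chosen with earlier results of these data known, so counts over them are not independent evidence. All members were named; of each pathway list, up to 3 called genes per comparison by smallest adjusted p were allowed, and the closest genes were those with the highest Pearson r of log2 CPM (prior count 2). A gene of the oxidase list is not reported here. A few further members of these lists are named by their results. The same code had been checked on simulated counts.

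The tests were repeated with DESeq2 1.42.0, with replicate number as a block, with unrounded counts, with RLE or upper-quartile factors, without the count filter or with 1 CPM in 3 libraries in its place, at an adjusted p under 0.01, on just the libraries a comparison uses, and with each library left out. Sequences came from the RefSeq copy of TAIR10.1 by its own annotation, and coding sequences were aligned with Biopython 1.88. Tables were made with pandas 2.3.3 and numpy 2.4.6 and figures with matplotlib 3.10.9 in Python 3.11.15.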

Additional observations from a re-analysis of the deposited data

Results flagged for a closer look

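Effects that differed between genotypes or between times, by the test of the difference itself in edgeR, are listed here as values.

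The response to MS against untreated seedlings was higher in ein2-5 than in wild type by 2.79 on the log2 scale for ACS11 at 3 h, and at 24 h by 3.41 for ACS11, 2.87 for ACS8 and 0.84 for ACS6. The ACS11 and ACS8 calls held with every library left out, and the ACS6 call did not.

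The effect of AA against MS was lower at 24 h than at 3 h: the log2 difference was -2.30 for ACS4 and -1.88 for ACS11 in wild type, and -1.85 for ACS2 and -1.87 for ACS6 in ein2-5. The ACS4 and ACS6 calls held with every library left out, and those of ACS11 and ACS2 did not.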

How the results depend on the processing

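Replicate numbers did not pair the libraries: the mean correlation of residuals was -0.00409 over 135 pairs with the same number and 0.00224 over 270 others. With RLE factors and with a replicate block each of the 19 counts of members and each of the 152 member tests kept its call. Under the replicate block 4 members passed for AA in wild type at 3 h, as without it. In ein2-5 it was 4 of the 7 members other than ACS9, again as without it. No setting reversed a call: over the member tests under all alternatives 2458 kept their status as called or not called, 47 lost a call and 27 gained one. Values that were not called in either fit could change direction and still count among the 2458. These totals include the tests of ACS9. Its call with AA in ein2-5 at 3 h is not evidence, since that group took it through the filter. At an adjusted p under 0.01 the number of members passing was 1 for AA in wild type at 24 h, 0 for AA in ein2-5 at 24 h, and 1 for the interaction of AA with time in each genotype. Calls also lost there were ACS11 for AA in wild type at 3 h and ACS6 for MS against untreated in ein2-5 at 3 h. So were ACS2 for ein2-5 against wild type with MS at 3 h and ACS6 for MS with genotype at 24 h. For the interaction of AA with genotype at 3 h the number passing was 1 without a count filter, 1 with unrounded counts and 1 in DESeq2, each time ACS6. DESeq2 gave 1 (ACS11) for untreated ein2-5 against wild type. In fits of only the libraries compared it was 2 for AA in ein2-5 at 24 h (ACS7 and ACS11), 1 (ACS6) for untreated ein2-5 against wild type, 4 for ein2-5 against wild type with AA at 3 h and 1 for AA with time in ein2-5. Smaller changes of a count under these settings are not all listed. With each library left out in turn the number ranged from 2 to 4 for AA in wild type at 3 h, 1 to 2 for AA in wild type at 24 h, 0 to 2 for AA in ein2-5 at 24 h, 1 to 2 for AA with time in wild type and 1 to 3 in ein2-5, 1 to 2 for MS with genotype at 3 h, and 0 to 1 for untreated ein2-5 against wild type. It was 2 to 4 for MS against untreated in ein2-5 at 3 h and for ein2-5 against wild type with MS at 3 h. For MS against untreated in wild type at both times and for MS with genotype at 24 h it was 2 to 3. Between genotypes it was 2 to 3 with AA at 3 h and 3 to 4 with MS at 24 h. In the other comparisons it did not change. The cause of these changes was not tested. ACS9 had no test with 1 CPM in 3 libraries as the filter. Low counts limit ACS5, ACS8 and ACS9.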
